A study of Homo sapiens with 22 samples.

Results

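The 10 receptor tyrosine kinase genes EGFR, ERBB2, ERBB3, MET, AXL, EPHA2, DDR1, FGFR1, INSR and IGF1R were followed through RNA-seq of the human breast cancer cell line MDA-MB-231, which is established in culture and has mesenchymal features. They were taken by gene symbol from 3 tables of FPKM (fragments per kilobase of transcript, scaled to library size). The tables hold 60669, 60669 and 14954 genes, and all 10 receptors were found in each table and passed the filter on low values. The series title concerns BET inhibition and the m6A writer complex, the enzyme complex with METTL3 as its catalytic subunit that methylates adenosines in RNA. There were 22 libraries in 11 groups of 2, and the labels give the genotype of every group as WT. In the knockdown table, shM3_WT and shM3_CD are shM3 cells that received METTL3-WT or METTL3-CD again, shM3 cells carry the knockdown alone and B5 cells are the comparison line, all kept for 2 to 3 months. In the DMSO table, cells received JQ1, Molib or I-BET151, each at 0.5 µM, or DMSO, for 3 days. In the CTRL table, MW_JQ1 and JQ1 cells received 0.5 µM JQ1 and CTRL cells were the controls, for 3 days. The labels do not say what B5, CD, Molib or MW stand for, whether the infected lines are single clones, or whether paired libraries stem from different cultures. The p-values therefore refer to the spread between these samples alone, and that spread may be technical.

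Receptor tyrosine kinases are cell surface proteins that dimerise or cluster when a ligand binds, phosphorylate each other on tyrosines and recruit adaptors that switch on the RAS-ERK and PI3K-AKT pathways. EGFR, ERBB2 and ERBB3 form one family, in which EGFR binds ligands of the EGF type, ERBB3 binds neuregulins and has a weak kinase, and ERBB2 has no known ligand and serves as a partner of the others. MET binds hepatocyte growth factor, AXL binds GAS6, EPHA2 binds ephrins on neighbouring cells, DDR1 binds collagen, FGFR1 binds fibroblast growth factors, and INSR and IGF1R bind insulin and the insulin-like growth factors. Basal-like breast cancer lines are known for high EGFR, AXL and EPHA2 and for ERBB2 without gene amplification.

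METTL3 acts mostly on the A of motifs such as GGACT, often near the stop codon, so the GGACT site nearest to the last coding base that lies within 1 exon is shown for EPHA2, EGFR, AXL and DDR1, the 4 receptors described most fully here. The capitals mark the motif in these 27-base windows of the GENCODE transcripts, read 5′ to 3′ on the transcript strand. No methylation was measured in the data used here, so a motif is a description of the sequence and no methylated site.
EPHA2 (GRCh38, chr1:16125241-16125267, minus strand): acagcctgctgGGACTcaaggaccagg
EGFR (GRCh38, chr7:55205495-55205521, plus strand): gactaccagcaGGACTtctttcccaag
AXL (GRCh38, chr19:41257601-41257627, plus strand): aagcagcctgcGGACTgtctggatgga
DDR1 (GRCh38, chr6:30898227-30898253, plus strand): ctctatgctggGGACTattaccgtgtg
All 4 windows lie in coding sequence. The motif's A lay 36 bases before the last coding base in EPHA2, 106 in EGFR, 355 in DDR1 and 364 in AXL. The EPHA2 transcript of 3964 bases held 9 GGACT sites, or 2.27 per kilobase, and 93.2% of 19684 coding genes were at or below that density (median 0.939). EGFR had 1.22 per kilobase, AXL 1.69, DDR1 1.39, and ERBB2 had 0.66, the lowest of the 10. The density was 1.51 in MET, 1.3 in FGFR1, 1.18 in ERBB3, 0.847 in INSR and 0.736 in IGF1R. Whether it goes with the receptor changes below was not tested.

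The promoters of EPHA2, EGFR and AXL are shown for their shared directions in the tests below. These 3 genes passed as lower in shM3 than in B5 and as higher in shM3_WT than in shM3. The promoters are the RefSeq windows of GRCh38.p14 from 250 bases before to 50 bases after the gene start. RefSeq windows were matched for 8 of the 10 genes. Capitals mark the GC box, letters GGGCGG or CCGCCC on the other strand.
EPHA2 (chr1:16156020-16156319, minus strand): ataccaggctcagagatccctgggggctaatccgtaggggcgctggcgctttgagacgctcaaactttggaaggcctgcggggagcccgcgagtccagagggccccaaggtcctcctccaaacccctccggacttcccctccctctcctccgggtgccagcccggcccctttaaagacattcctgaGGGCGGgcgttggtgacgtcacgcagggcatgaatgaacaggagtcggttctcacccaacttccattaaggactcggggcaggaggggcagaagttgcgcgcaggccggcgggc
EGFR (chr7:55018767-55019066, plus strand): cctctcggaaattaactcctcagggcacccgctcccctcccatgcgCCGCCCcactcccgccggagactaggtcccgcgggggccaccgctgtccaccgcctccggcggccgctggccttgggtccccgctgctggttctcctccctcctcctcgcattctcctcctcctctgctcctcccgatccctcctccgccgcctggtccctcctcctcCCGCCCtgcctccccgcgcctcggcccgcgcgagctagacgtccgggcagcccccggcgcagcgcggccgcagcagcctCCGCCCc
AXL (chr19:41218973-41219272, plus strand): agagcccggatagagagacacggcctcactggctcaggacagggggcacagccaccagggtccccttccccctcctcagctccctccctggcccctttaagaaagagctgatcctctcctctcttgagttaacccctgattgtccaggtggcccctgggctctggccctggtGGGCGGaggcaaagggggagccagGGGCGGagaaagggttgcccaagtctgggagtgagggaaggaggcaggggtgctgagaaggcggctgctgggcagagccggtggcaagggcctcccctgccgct
The GC box occurred once in the EPHA2 window, 3 times in that of EGFR and 2 times in that of AXL, and 45.0% of 35116 promoter windows held at least 1. It was not particular to these genes: the windows of INSR, MET and IGF1R held 4, 3 and 2, and those of ERBB2 and DDR1 held 0. On both strands, none of the 3 held the TATA box TATAAA (present in 11.5% of the windows), the E-box CACGTG (7.26%) or the AP-1 motif TGACTCA (4.95%). G and C made up 64.3% of the EPHA2 window, 75.3% of that of EGFR and 66.0% of that of AXL (median of all windows 58.7%).

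AXL and EPHA2 led the receptors in every library and made up 52.3% to 75.1% of the summed FPKM of the 10 genes. In B5 cells EPHA2 averaged 203 ± 21.7 FPKM and AXL 186 ± 17.2 (SD, n = 2 libraries), and their ranges overlapped. EGFR (52.7 ± 1.01) and FGFR1 (45.0 ± 6.95) came next, followed by MET (37.3 ± 1.88) and DDR1 (35.4 ± 2.07), whose ranges overlapped. ERBB2 stood at 26.9 ± 0.385, and IGF1R (8.78 ± 4.29), INSR (5.87 ± 0.444) and ERBB3 (2.50 ± 0.0789) were the lowest. FPKM corrects for transcript length, so levels can be set side by side between genes, while read depth per library is unknown.

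Several library facts bear on the receptors. In the CTRL table, the JQ1 and CTRL libraries stood apart: the correlation between replicates over genes was 0.777 and 0.746, against 0.977 to 0.987 in the other groups, and 15.5% to 28.6% of the 13261 genes tested were listed at 0, against 0.543% to 0.649% in MW_JQ1. RN7SL1 was the highest gene in each of these JQ1 and CTRL libraries (37435 to 52947 FPKM), while EEF1A1 or S100A6 was highest in MW_JQ1. Comparisons of MW_JQ1 with JQ1 or CTRL run along this difference between libraries, and its part was not tested. In B5 replicate 2, PIDD1 alone was listed at 8234200 FPKM, and the other genes summed to 423171. METTL3, the targeted gene, was at 312 and 311 FPKM in shM3_WT, at 277 and 270.5 in shM3_CD and at 4.39 and 4.80 in shM3, against 20.1 and 23.8 in B5. The line markers VIM (549 to 1627 FPKM) and CAV1 (17.7 to 184) were present in all 22 libraries, while SPARC reached at most 2.13 FPKM. Of the luminal markers, in the tables that list them, ESR1 reached at most 0.0599 and CDH1 0.416 FPKM, but KRT19 was at 190.6 to 989.9, EPCAM reached 10.9 and GATA3 8.14.

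The first comparison asked what the receptors do when METTL3 is lowered. Of the 10 receptors 6 fell and 2 rose in shM3 cells relative to B5 cells. EPHA2 fell most (3.21-fold lower), EGFR (2.17-fold) and DDR1 (1.90-fold) followed, and FGFR1, INSR and AXL fell by less, whereas ERBB2 and ERBB3 rose. MET and IGF1R did not pass the test. A gene passed at a limma adjusted p under 0.05 on log2(FPKM + 1), a scale that understates the change of low genes, and 37.8% of the 14638 genes tested passed in this comparison, 17.9% higher and 19.9% lower.

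EPHA2 (ENSG00000142627, hg38 chromosome 1, 16124337 to 16156087, minus strand), the ephrin receptor, was at 61.7 and 65.1 FPKM in shM3, against 188 and 219 in B5. Both shM3 libraries were far below both B5 libraries. The level was 3.21-fold lower in shM3 (log2 fold change -1.66, SE 0.09, adjusted p = 5.0e-05). EGFR (ENSG00000146648, chromosome 7, 55019021 to 55211628, plus strand) was at 24.2 and 24.4 FPKM in shM3, against 53.4 and 52.0 in B5. Its shM3 libraries nearly coincided and lay under every B5 value, 2.17-fold lower (log2 fold change -1.09, SE 0.07, adjusted p = 9.6e-05). AXL (ENSG00000167601, chromosome 19, 41219203 to 41261766, plus strand), the receptor for GAS6, was at 139 and 137 FPKM in shM3, against 173 and 198 in B5. The groups did not overlap, and the log2 fold change was -0.42 (SE 0.08, adjusted p = 0.0068).

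DDR1 (ENSG00000204580, chromosome 6, 30876421 to 30900156, plus strand), the collagen receptor, was at 19.3 and 17.9 FPKM in shM3, against 33.9 and 36.9 in B5. Its shM3 values were all below its B5 values (1.90-fold lower, log2 fold change -0.89, SE 0.11, adjusted p = 0.00092). FGFR1 was at 24.9 and 25.7 FPKM in shM3, against 40.1 and 49.9 in B5 (log2 fold change -0.80, SE 0.21, adjusted p = 0.025). The B5 libraries of FGFR1 differed more from each other than those of shM3. Without B5 replicate 2, shM3 replicate 1 or shM3 replicate 2 the adjusted p of FGFR1 was 0.12, 0.096 and 0.084, and without the filter on low values 0.065. INSR, the insulin receptor, was at 3.62 and 3.59 FPKM in shM3, against 5.56 and 6.18 in B5 (log2 fold change -0.58, SE 0.12, adjusted p = 0.0097).

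ERBB2 (ENSG00000141736, chromosome 17, 39687914 to 39730426, plus strand) was at 39.9 and 34.1 FPKM in shM3, against 27.2 and 26.6 in B5. Both shM3 libraries were above both B5 libraries (log2 fold change 0.44, SE 0.09, adjusted p = 0.011). ERBB3 (ENSG00000065361, chromosome 12, 56076799 to 56103505, plus strand), its neuregulin-binding partner, was at 3.84 and 4.68 FPKM in shM3, against 2.56 and 2.45 in B5 (log2 fold change 0.58, SE 0.15, adjusted p = 0.022). Both calls depended on single libraries: ERBB2 did not pass without shM3 replicate 1 (adjusted p = 0.059), and ERBB3 did not pass without B5 replicate 1 (0.062), B5 replicate 2 (0.079) or shM3 replicate 2 (0.12), or without the filter on low values (0.060). MET was at 34.9 and 36.0 FPKM in shM3, against 36.0 and 38.7 in B5, a log2 difference of -0.07 with a 95% interval from -0.25 to 0.11. IGF1R was at 3.78 and 4.36 FPKM in shM3, against 5.75 and 11.8 in B5 (adjusted p = 0.081), and it passed without B5 replicate 1 (0.024).

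**Figure D1:**
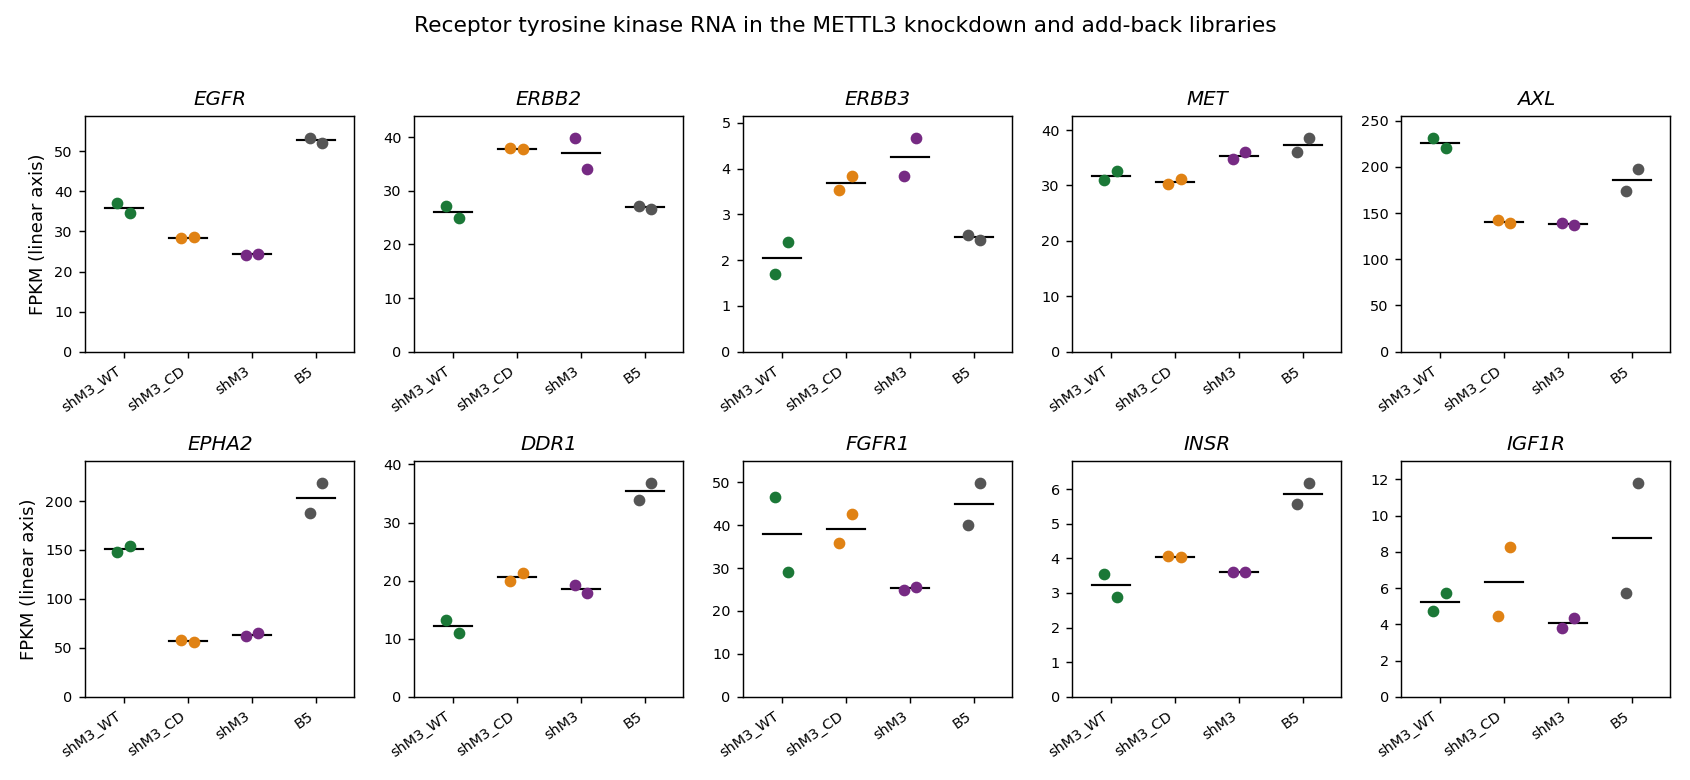
FPKM of the 10 receptors in the knockdown table, 1 panel a gene on a linear axis from 0; each point is 1 library, the bar is the mean of the 2 libraries, and the groups run shM3_WT, shM3_CD, shM3 and B5. EPHA2 sits at 148 and 154 FPKM in shM3_WT and at 55.8 to 65.1 in shM3_CD and shM3, against 188 and 219 in B5.

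Markers of cell state moved with the same groups. The 5 line markers (VIM, CD44, ZEB1, SPARC, CAV1) summed to 800.5 to 813 FPKM in shM3, against 1231 to 1307 in B5, with CD44 at 25.7 and 27.8 against 125 and 121. VIM made up most of this sum in every library of the knockdown table (549 to 1183 FPKM), where ZEB1 reached at most 10.2 and SPARC 1.22. The 7 luminal markers summed to 436 to 454 FPKM in shM3, against 225 to 244 in B5, nearly all of it KRT19, while ESR1, PGR, FOXA1 and CDH1 were at or near 0. The 5 haematopoietic markers summed to 5.04 to 5.13 FPKM in shM3, against 10.9 to 21.4 in B5, with CD3E at 0. The 6 fibroblast and endothelial markers summed to 2.67 to 2.84 FPKM in shM3, against 6.27 to 7.38 in B5. Their part in the receptor differences was not tested, and in bulk RNA fewer cells of a kind and less RNA per cell cannot be told apart.

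Adding back METTL3-WT was followed by higher EPHA2, AXL and EGFR and by lower ERBB3, DDR1 and ERBB2 relative to shM3 cells, so 3 receptors rose and 3 fell (39.4% of all genes passed, 16.7% higher and 22.7% lower). EPHA2 was at 148 and 154 FPKM in shM3_WT, against 61.7 and 65.1 in shM3, 2.38-fold higher (log2 fold change 1.24, SE 0.09, adjusted p = 0.00011). AXL was at 232 and 219.9 FPKM in shM3_WT, against 139 and 137 in shM3 (log2 fold change 0.71, SE 0.08, adjusted p = 0.00075), and EGFR was at 37.2 and 34.7 in shM3_WT, against 24.2 and 24.4 in shM3 (log2 fold change 0.55, SE 0.07, adjusted p = 0.0014). For these 3 receptors, which are those that passed as higher, every shM3_WT library was above every shM3 library. How many of all genes separate in this way was not counted. ERBB2 was at 27.1 and 24.9 FPKM in shM3_WT, against 39.9 and 34.1 in shM3 (log2 fold change -0.49, SE 0.09, adjusted p = 0.0066). ERBB3 was at 1.69 and 2.39 FPKM in shM3_WT, against 3.84 and 4.68 in shM3 (log2 fold change -0.79, SE 0.15, adjusted p = 0.0064).

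DDR1 moved the other way from EPHA2. It was at 13.2 and 11.1 FPKM in shM3_WT, against 19.3 and 17.9 in shM3, where it was already below the B5 level (log2 fold change -0.59, SE 0.11, adjusted p = 0.0050). MET, FGFR1, INSR and IGF1R did not pass. FGFR1 was at 46.7 and 29.2 FPKM in shM3_WT, against 24.9 and 25.7 in shM3 (adjusted p = 0.092). Its shM3_WT libraries were far apart, and without shM3_WT replicate 2 the adjusted p was 0.015.

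With METTL3-CD added back none of the 10 receptors passed against shM3 by limma. In this comparison 11.4% of all genes passed, 6.82% higher and 4.59% lower. At an unadjusted p under 0.05 were 3 of the 10 receptors, beside 4114 of the 14638 genes tested. EPHA2 was at 58.4 and 55.8 FPKM in shM3_CD, against 61.7 and 65.1 in shM3, and the log2 difference was -0.15 with a 95% interval from -0.36 to 0.06. AXL was at 142 and 139 FPKM in shM3_CD, against 139 and 137 in shM3 (log2 difference 0.03, interval -0.16 to 0.22). EGFR was at 28.3 and 28.5 FPKM in shM3_CD, against 24.2 and 24.4 in shM3 (log2 difference 0.22, interval 0.05 to 0.39, adjusted p = 0.10). The widest intervals were those of IGF1R, from -0.31 to 1.29, and FGFR1, from 0.10 to 1.11, and FGFR1 passed without shM3_WT replicate 1 (0.047) or shM3_WT replicate 2 (0.046), because all groups share 1 estimate of the spread.

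The METTL3-WT and METTL3-CD lines differed from each other in 6 receptors, 3 higher and 3 lower in shM3_WT (25.9% of all genes passed, 10.2% higher and 15.7% lower), although METTL3 RNA did not differ past the threshold between them (312 ± 0.608 FPKM in shM3_WT and 274 ± 4.47 in shM3_CD, adjusted p = 0.18). EPHA2 was 2.64-fold higher in shM3_WT (log2 fold change 1.39, SE 0.09, adjusted p = 0.00039), AXL 1.61-fold higher (0.68, SE 0.08, adjusted p = 0.0022) and EGFR 1.27-fold higher (0.33, SE 0.07, adjusted p = 0.018). DDR1 was 1.71-fold lower in shM3_WT (log2 fold change -0.73, SE 0.11, adjusted p = 0.0041), ERBB3 1.81-fold lower (-0.63, SE 0.15, adjusted p = 0.024) and ERBB2 1.45-fold lower (-0.52, SE 0.09, adjusted p = 0.0088). EGFR did not pass without shM3_WT replicate 1 (adjusted p = 0.091), shM3_CD replicate 1 (0.085) or shM3_CD replicate 2 (0.077), and ERBB2 did not pass without shM3_WT replicate 2 (0.054). ERBB3 did not pass without shM3_WT replicate 1 (0.11), shM3_CD replicate 1 (0.080) or shM3_CD replicate 2 (0.11), nor without the filter on low values (0.069).

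The return toward B5 levels was uneven across the receptors. Against B5, AXL was higher in shM3_WT (log2 fold change 0.28, adjusted p = 0.037), while DDR1 (-1.48, adjusted p = 0.00024), INSR (-0.71, adjusted p = 0.0057), EGFR (-0.54, adjusted p = 0.0022) and EPHA2 (-0.42, adjusted p = 0.013) were lower (1 higher and 4 lower, 30% of all genes passed, 11.8% higher and 18.2% lower). The split over all genes in shM3_WT against B5 was 1727 higher and 2659 lower, and 2465 and 2073 with trimmed means. ERBB2 was at 27.1 and 24.9 FPKM in shM3_WT, against 27.2 and 26.6 in B5, with overlapping groups and a log2 difference of -0.05 (95% interval -0.27 to 0.18). The AXL call was lost without any 1 of B5 replicate 1, shM3_WT replicates 1 and 2, shM3 replicates 1 and 2 or shM3_CD replicates 1 and 2 (adjusted p between 0.063 and 0.15) and without the filter on low values (0.066), and the EPHA2 call was lost without shM3_WT replicate 1 (0.066). In shM3_CD against B5, 6 receptors were lower and ERBB2 was higher (29.9% of all genes passed, 14.8% higher and 15.2% lower). EPHA2 (log2 fold change -1.81), EGFR (-0.87) and DDR1 (-0.75) were the deepest of the 6, and the calls of ERBB2, AXL, MET and INSR were lost when either shM3_CD library was left out (adjusted p between 0.052 and 0.14). MET was also lost without B5 replicate 2 (0.12) or either shM3 library (0.056 each), and INSR without either B5 library (0.052 and 0.12), either shM3 library (0.052 each) or the filter on low values (0.066).

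The marker sums moved here too. The 5 line markers summed to 1379 to 1492 FPKM in shM3_WT and 705 to 829 in shM3_CD, against 800.5 to 813 in shM3, and the 7 luminal markers to 228 to 237 in shM3_WT and 340.3 to 349.9 in shM3_CD, against 436 to 454 in shM3. The haematopoietic and the fibroblast and endothelial markers summed to at most 6.74 and 3.88 FPKM in these 6 libraries. Their part was not tested.

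**Figure D2:**
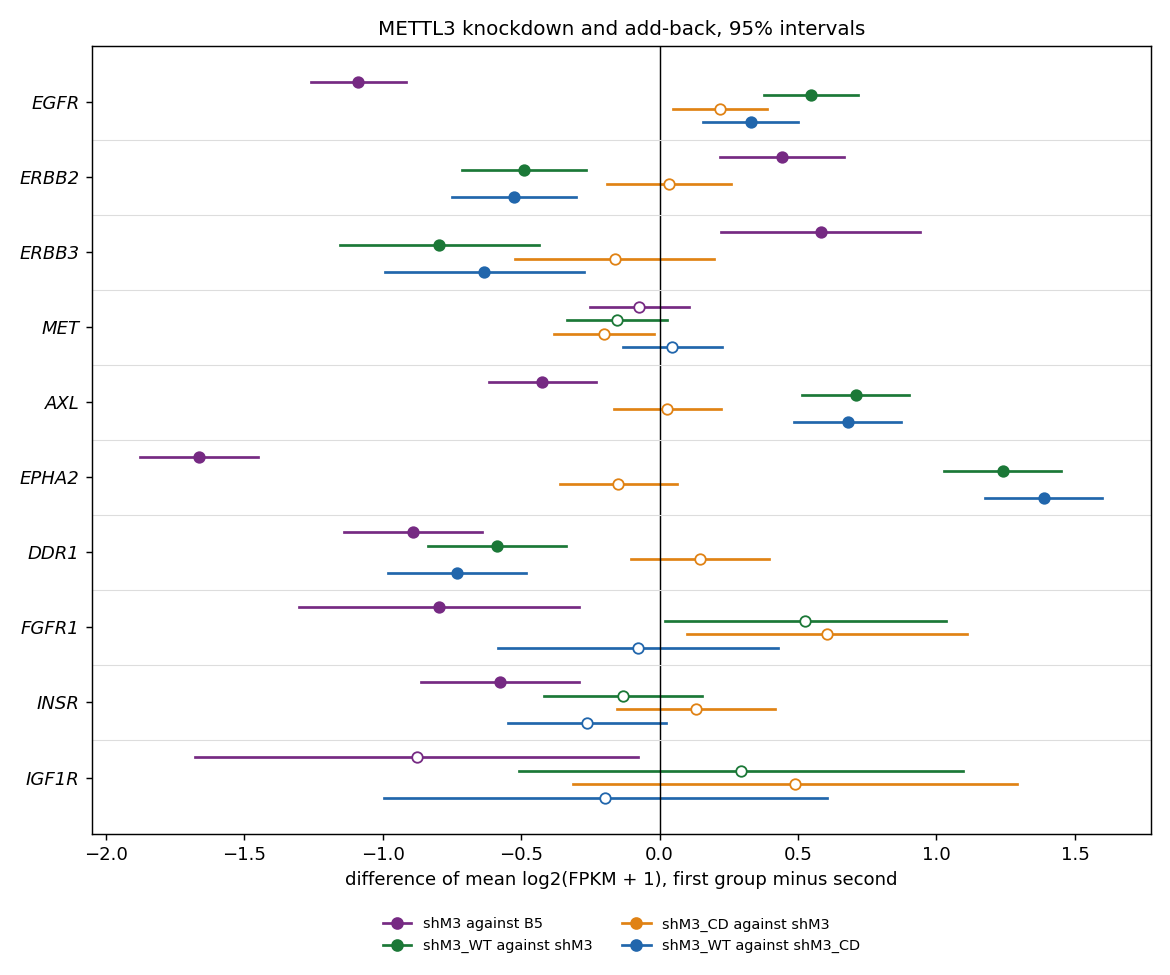
Differences of mean log2(FPKM + 1) with 95% intervals for the 10 receptors in 4 comparisons of the knockdown table; filled points passed at an adjusted p under 0.05 and open points did not. EPHA2 stands at -1.66 for shM3 against B5, at 1.24 for shM3_WT against shM3 and at -0.15 for shM3_CD against shM3.

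Genes of the same pathway were read from lists chosen with earlier results known. Of all genes, 17.9% were higher and 19.9% lower in shM3 than in B5. Of 48 other receptor tyrosine kinases, 20 were tested in shM3 against B5; 11 fell and 1 rose (median log2 fold change -0.53, against 0.00 over all genes and -0.69 over the 10 receptors). PTK7, a pseudokinase of the Wnt pathway, was 1.87-fold lower in shM3 (35.2 ± 1.78 against 65.7 ± 4.10 FPKM), and MST1R, a relative of MET, was 2.11-fold lower, whereas MUSK, the receptor of the neuromuscular junction, was 3.89-fold higher (8.52 ± 1.24 against 2.19 ± 0.568). Of 17 ligands tested 8 fell and 2 rose (median -0.26), among them AREG, an EGFR ligand (1.87-fold lower), PROS1, a ligand of the AXL relatives TYRO3 and MERTK (1.90-fold lower), and NRG1, the neuregulin that binds ERBB3 (14.8 ± 2.16 against 25.0 ± 0.593 FPKM).

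Downstream of the receptors the lists were mixed, beside 17.9% of all genes higher and 19.9% lower in shM3. Of 30 adaptors and effectors 5 fell and 7 rose in shM3 (median 0.07); PTPN11, which encodes the phosphatase SHP2 that relays receptor signals to RAS, was 3.72-fold lower (14.1 ± 1.12 against 52.3 ± 4.26 FPKM), NRAS 2.63-fold and ARAF 1.84-fold lower. Of 24 genes tested from the list of negative regulators 7 rose and 3 fell (median -0.09). The list also holds ADAM17, the protease that sheds EGFR ligands, so its counts are not of inhibitors alone. ERRFI1, which binds and inhibits EGFR family kinases, was at 429 ± 24.0 FPKM in shM3 against 208 ± 22.4 in B5, and NEDD4, a ubiquitin ligase, was 3.44-fold higher. PTPRJ, a receptor phosphatase, was 1.85-fold lower. Of 17 genes of ERK output and feedback 4 rose and 5 fell (median -0.10). Of these, DUSP5, a nuclear phosphatase of ERK, was 3.39-fold higher (117 ± 1.07 against 34.5 ± 2.24), while DUSP6, the cytoplasmic one, was 2.64-fold lower and SPRY1, an inhibitor of the pathway, 3.21-fold lower.

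With METTL3-WT added back, several of the named pathway genes moved the opposite way. PTPN11 was 4.09-fold higher in shM3_WT than in shM3 (57.5 ± 0.646 against 14.1 ± 1.12 FPKM), NRAS 2.48-fold, PTK7 1.78-fold and NRG1 2.42-fold higher, and the EGFR ligand HBEGF 1.45-fold higher. ERRFI1 was 2.62-fold lower (164 ± 1.68 against 429 ± 24.0) and DUSP5 3.68-fold lower. EPHB2, an ephrin receptor, was 2.95-fold higher and MUSK 1.96-fold higher. GRB10, an adaptor that restrains INSR and IGF1R, was 2.81-fold lower, SPINT1, an inhibitor of the protease that activates hepatocyte growth factor, 4.03-fold lower, and SHC1, an adaptor of EGFR, 1.77-fold lower. PROS1 was 1.87-fold lower and EGR1, an immediate early gene of ERK, 2.74-fold lower, and FOSL1, an AP-1 subunit raised by ERK, was 1.71-fold higher. In this comparison 5 of 20 other receptors rose and 5 fell, 6 of 17 ligands rose and 3 fell, 5 of 30 adaptors rose and 5 fell, 2 of 24 negative regulators rose and 9 fell, and 4 of 17 ERK genes rose and 7 fell, with medians of 0.09, 0.24, -0.22, -0.19 and 0.05 against -0.08 over all genes. Of all genes, 16.7% rose and 22.7% fell. Another scaling of the libraries turned the split over all genes from 2451 higher and 3321 lower to 2932 and 2623 (trimmed means).

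In shM3_CD against shM3, where no receptor passed, PTPN11 was 2.08-fold higher (29.2 ± 0.782 against 14.1 ± 1.12 FPKM), PTK7 1.60-fold higher, ERRFI1 1.53-fold lower, GRB10 1.44-fold lower, DUSP5 2.16-fold lower and EGR1 3.77-fold lower. MERTK, an AXL relative, was 1.93-fold lower and FGF5, an FGFR1 ligand, 1.78-fold lower. SHC1 and MAP2K2, the kinase above ERK, were 1.44-fold and 1.39-fold lower, and PTPRJ and DUSP4, another ERK phosphatase, were 1.36-fold and 1.46-fold higher. Of the lists, 2 of 20 other receptors, 2 of 17 ligands, 1 of 30 adaptors, 1 of 24 negative regulators and 2 of 17 ERK genes rose, and 2, 2, 2, 2 and 3 fell (medians -0.02, 0.06, -0.04, -0.10 and -0.10, against 0.01 over all genes). Of all genes, 6.82% rose and 4.59% fell.

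Directly against shM3_CD, shM3_WT had 2.79-fold higher NRG1 (35.8 ± 7.26 against 12.8 ± 1.57 FPKM), 1.97-fold higher PTPN11, 2.01-fold higher NRAS, 2.58-fold higher FOSL1 and 1.60-fold higher HBEGF. EPHB2 was 2.19-fold and MUSK 1.92-fold higher, and MST1R was 1.41-fold lower. ERRFI1 was 1.71-fold, GRB10 1.95-fold, SPINT1 3.76-fold, PROS1 1.80-fold, DUSP5 1.70-fold and DUSP4 1.41-fold lower, as was SOS1, the exchange factor that loads RAS (1.62-fold). Of the lists, 2 of 20 other receptors, 6 of 17 ligands, 4 of 30 adaptors, 2 of 24 negative regulators and 4 of 17 ERK genes were higher in shM3_WT, and 2, 5, 3, 9 and 4 were lower (medians 0.09, 0.02, -0.04, -0.13 and 0.02, against -0.08 over all genes). The split over all genes was 1494 higher (10.2%) and 2291 lower (15.7%), and 2005 and 1525 with trimmed means.

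The second set of comparisons asked what BET inhibitors, compounds that keep bromodomain proteins from acetylated histones, do to the receptors. EGFR and AXL rose with all 3 compounds. DDR1 fell with JQ1 (2.95-fold lower) and Molib (3.72-fold lower), and its level with I-BET151 did not pass the test. FGFR1 rose with Molib and fell with I-BET151, and ERBB2, ERBB3, MET, EPHA2, INSR and IGF1R did not pass with any of the 3. The comparisons share the DMSO libraries. Of the 10 receptors 2 rose and 1 fell with JQ1 (35.1% of 14936 genes passed, 14.5% higher and 20.6% lower), 3 rose and 1 fell with Molib (35.3%, with 14.8% and 20.5%), and 2 rose and 1 fell with I-BET151 (28.0%, with 13.9% and 14.1%).

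EGFR was at 39.8 and 38.9 FPKM with JQ1, 66.3 and 79.0 with Molib and 46.7 and 47.9 with I-BET151, against 30.9 and 27.6 with DMSO. Each treated library was above both DMSO libraries, with the Molib pair highest. The log2 fold change against DMSO was 0.42 for JQ1 (SE 0.11, adjusted p = 0.026), 1.28 for Molib (SE 0.11, adjusted p = 0.00030) and 0.68 for I-BET151 (SE 0.11, adjusted p = 0.0055). The JQ1 call was lost without JQ1 library a (adjusted p = 0.12), JQ1 library b (0.097), DMSO replicate 1 (0.058) or DMSO replicate 2 (0.15). AXL was at 219 and 211 FPKM with JQ1, 255 and 249 with Molib and 196 and 185 with I-BET151, against 158 and 154 with DMSO. No treated library overlapped the DMSO pair. The log2 fold change of AXL was 0.46 for JQ1 (SE 0.08, adjusted p = 0.0056), 0.69 for Molib (SE 0.08, adjusted p = 0.0010) and 0.29 for I-BET151 (SE 0.08, adjusted p = 0.039). The I-BET151 call was lost without DMSO replicate 1 (0.13), DMSO replicate 2 (0.17), either Molib library (0.075 each), either JQ1 library (0.076 each) or the filter on low values (0.057).

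DDR1 was at 5.997 and 4.97 FPKM with JQ1, 4.71 and 3.98 with Molib and 22.5 and 16.4 with I-BET151, against 14.4 and 17.9 with DMSO. The JQ1 and Molib libraries lay far under the DMSO pair, and the I-BET151 pair overlapped it. DDR1 was 2.95-fold lower in JQ1 (log2 fold change -1.40, SE 0.18, adjusted p = 0.0016) and 3.72-fold lower in Molib (-1.68, SE 0.18, adjusted p = 0.00070), and the I-BET151 difference was 0.25 with a 95% interval from -0.19 to 0.68. FGFR1 was at 45.3 and 42.2 FPKM with JQ1, 53.5 and 48.8 with Molib and 20.2 and 14.2 with I-BET151, against 33.8 and 28.8 with DMSO. The JQ1 and Molib pairs were above the DMSO pair and the I-BET151 pair was below it. FGFR1 rose with Molib (log2 fold change 0.69, SE 0.17, adjusted p = 0.017) and fell with I-BET151 (-0.84, SE 0.17, adjusted p = 0.010), while JQ1 gave 0.47 (adjusted p = 0.063). The Molib call was lost without DMSO replicate 2 (0.10), Molib replicate 1 (0.087) or Molib replicate 2 (0.053), and the I-BET151 call without DMSO replicate 1 (0.070). With JQ1 it passed without I-BET151 replicate 1 or 2 (0.015 each) and with trimmed-mean scaling (0.045).

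EPHA2, the receptor that fell most in shM3, was at 107 and 106 FPKM with JQ1, 125 and 119 with Molib and 145 and 135 with I-BET151, against 121 and 119.8 with DMSO. The Molib and DMSO values overlapped, and the differences were -0.18 for JQ1 (95% interval -0.38 to 0.02), 0.02 for Molib (-0.18 to 0.22) and 0.21 for I-BET151 (0.01 to 0.41, adjusted p = 0.11, and 0.045 without I-BET151 replicate 2). ERBB2 was at 33.1 and 28.3 FPKM with JQ1, 30.2 and 32.7 with Molib and 27.9 and 29.02 with I-BET151, against 24.6 and 26.4 with DMSO, with the largest difference 0.29 in Molib (adjusted p = 0.078, and 0.044 with scaling to equal medians). MET was at 31.1 and 20.03 FPKM with JQ1, 18.2 and 24.9 with Molib and 36.8 and 47.1 with I-BET151, against 20.8 and 34.4 with DMSO. Its replicates were far apart, and its intervals were the widest of the 10 with those of IGF1R, which ranged over 5.99 to 12.5 FPKM in the 8 libraries. INSR ranged over 2.62 to 3.53 FPKM in the 6 treated libraries, against 3.75 and 3.77 in DMSO, and ERBB3 over 1.32 to 3.55 FPKM in the 8 libraries.

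**Figure D3:**
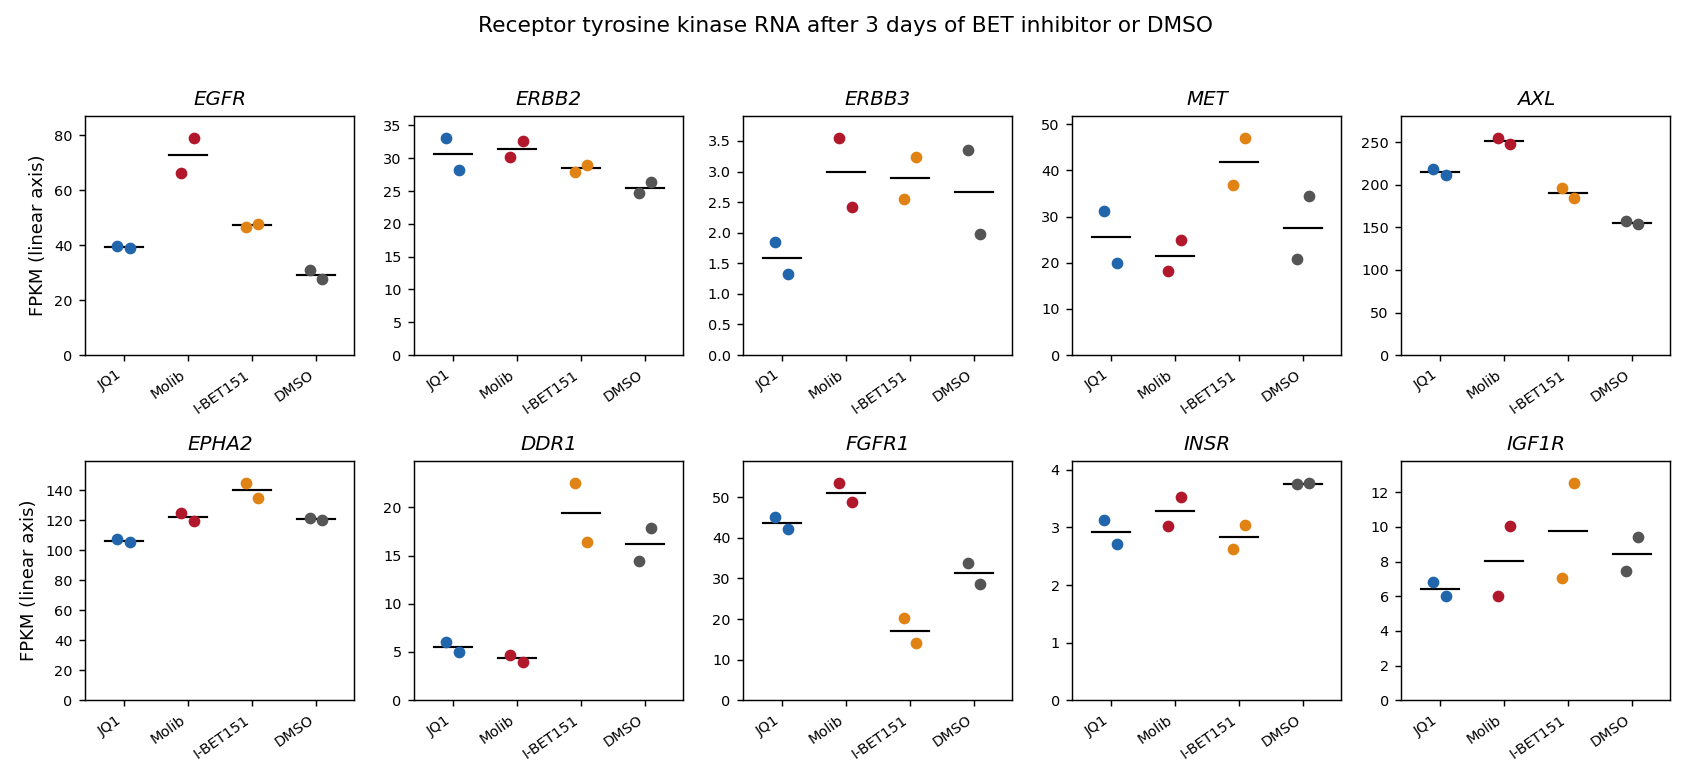
FPKM of the 10 receptors after 3 days with JQ1, Molib, I-BET151 or DMSO, 1 panel a gene on a linear axis from 0; each point is 1 library and the bar is the mean of the 2. DDR1 sits at 3.98 to 5.997 FPKM in JQ1 and Molib, against 14.4 and 17.9 in DMSO, and FGFR1 at 14.2 and 20.2 in I-BET151, against 28.8 and 33.8 in DMSO.

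The compounds were also set against each other at the matched dose of 0.5 µM and 3 days, in 3 pairs. Molib and JQ1 did not differ past the threshold for any gene (0 of 14936 by limma, against 1227 at an unadjusted p under 0.05, 3 of them receptors). EGFR had the largest receptor difference, 0.86 higher in Molib on the log2 scale (SE 0.11, 95% interval 0.60 to 1.13, adjusted p = 0.17), and the other receptors at an unadjusted p under 0.05 were ERBB3 with 0.62 (0.07 to 1.17) and AXL with 0.23 (0.03 to 0.42). For DDR1 the difference was -0.28 (-0.71 to 0.16) and for FGFR1 0.22 (-0.17 to 0.61). I-BET151 differed from JQ1 in 3 receptors, 2 higher and 1 lower (44.6% of all genes passed, 24.6% higher and 20.1% lower). DDR1 was 3.55-fold higher in I-BET151 than in JQ1 (log2 fold change 1.65, SE 0.18, adjusted p = 0.00049), EPHA2 1.31-fold higher (0.39, SE 0.09, adjusted p = 0.0089) and FGFR1 2.55-fold lower (-1.32, SE 0.17, adjusted p = 0.00082). The EPHA2 call was lost without JQ1 library b (0.058), and AXL (-0.17, adjusted p = 0.14) passed without I-BET151 replicate 1 (0.044).

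I-BET151 differed from Molib in 5 receptors, 2 higher and 3 lower (43.5% of all genes passed, 23.6% higher and 19.9% lower). DDR1 was 4.48-fold higher in I-BET151 than in Molib (log2 fold change 1.92, SE 0.18, adjusted p = 0.00027) and MET 1.95-fold higher (0.94, SE 0.29, adjusted p = 0.037). FGFR1 was 2.98-fold lower (-1.54, SE 0.17, adjusted p = 0.00044), EGFR 1.54-fold lower (-0.60, SE 0.11, adjusted p = 0.0047) and AXL 1.32-fold lower (-0.40, SE 0.08, adjusted p = 0.0073). The MET call was lost without Molib replicate 1 (0.18), Molib replicate 2 (0.053), I-BET151 replicate 1 (0.058), I-BET151 replicate 2 (0.16) or the filter on low values (0.092), and the AXL call without Molib replicate 1 (0.053). EPHA2 (0.19, adjusted p = 0.11) passed without I-BET151 replicate 2 (0.039).

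**Figure D4:**
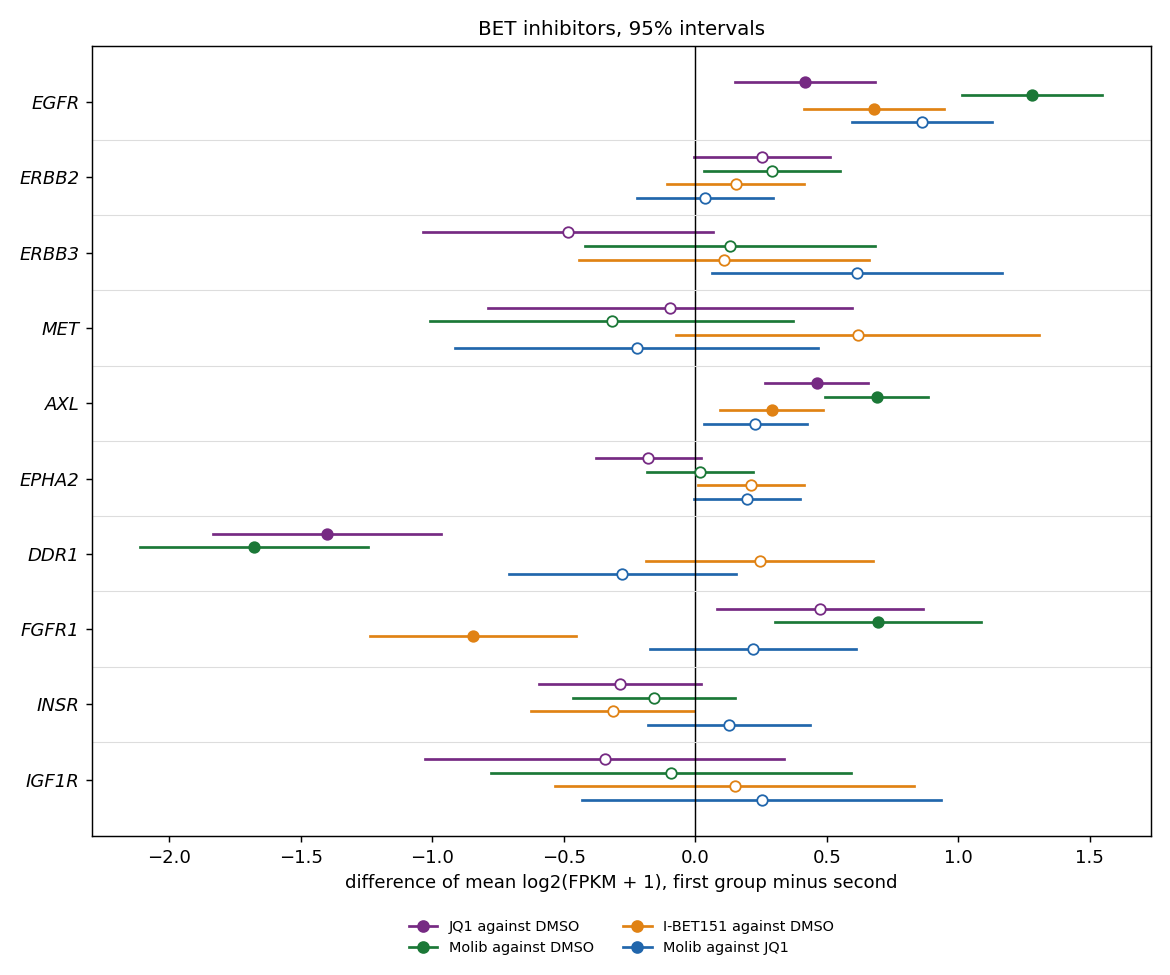
Differences of mean log2(FPKM + 1) with 95% intervals for the 10 receptors, for each compound against DMSO and for Molib against JQ1; filled points passed at an adjusted p under 0.05 and open points did not. DDR1 stands at -1.40 for JQ1 and -1.68 for Molib, and FGFR1 at 0.69 for Molib and -0.84 for I-BET151.

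Marker levels differed between the treatments as well. KRT19 was at 990 and 973 FPKM with JQ1, 958 and 895 with Molib and 351 and 368 with I-BET151, against 228 and 248 with DMSO, and it made up nearly all of the luminal sum, with ESR1, PGR and CDH1 at or near 0. The 5 line markers summed to 1492 to 1737 FPKM in JQ1, 1658 to 1663 in Molib and 897 to 1052 in I-BET151, against 1652 to 1675 in DMSO. Most of this sum was VIM. The haematopoietic markers summed to 0.664 to 5.91 FPKM and the fibroblast and endothelial ones to 0.303 to 2.49 over the 8 libraries. Their part in the receptor differences was not tested. METTL3 itself was at 20.1 and 19.2 FPKM in JQ1 (adjusted p = 0.062), 21.5 and 19.7 in Molib (adjusted p = 0.10) and 18.3 and 13.7 in I-BET151 (adjusted p = 0.011), against 25.4 and 27.2 in DMSO.

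Of 12 ligands tested, 5 rose and 1 fell with I-BET151 (median log2 fold change 0.43), while 3 fell with JQ1 and 4 with Molib and none rose (medians -0.27 and -0.34; over all genes -0.04 with JQ1, -0.03 with Molib and 0.00 with I-BET151). Against DMSO, 14.5% of all genes rose and 20.6% fell with JQ1, 14.8% and 20.5% with Molib, and 13.9% and 14.1% with I-BET151. These shares also stand beside the counts against DMSO of the other lists below. HBEGF, an EGFR ligand, was at 12.1 ± 0.247 FPKM in JQ1, 15.7 ± 0.148 in Molib and 56.9 ± 0.202 in I-BET151, against 33.9 ± 1.22 in DMSO. AREG was 4.11-fold higher in I-BET151 (121 ± 2.03 against 29.4 ± 0.643 in DMSO) and TGFA, another EGFR ligand, 2.34-fold higher, whereas NRG1 was 3.05-fold lower in JQ1 and 2.53-fold lower in Molib. Tested directly, 7 of 12 ligands were higher and 1 lower in I-BET151 than in JQ1, and 8 higher and 1 lower than in Molib. Of all genes, 24.6% were higher and 20.1% lower in I-BET151 than in JQ1, and 23.6% higher and 19.9% lower than in Molib.

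Of 17 ERK output and feedback genes, 4 rose and 8 fell with JQ1 (median -0.31), 3 rose and 5 fell with Molib (-0.19), and 7 rose and 1 fell with I-BET151 (0.28). IER3, a survival gene induced by ERK, was at 288 ± 7.62 FPKM in JQ1 and 292 ± 15.5 in Molib, against 555 ± 3.01 in DMSO, and it was 3.15-fold higher in I-BET151. ETV4, a transcription factor raised by ERK, was 8.10-fold lower in JQ1 and 6.93-fold lower in Molib, while DUSP6 was 2.28-fold and 2.39-fold higher. In I-BET151 EGR1 was 6.18-fold higher (22.3 ± 0.587 against 3.61 ± 0.0970 in DMSO) and DUSP5 2.73-fold higher. Directly, 12 of the 17 were higher and 2 lower in I-BET151 than in JQ1, and 9 higher and 2 lower than in Molib, beside the same shares of all genes (24.6% and 23.6% higher, 20.1% and 19.9% lower). Of 25 negative regulators, 11 were higher and 1 lower in I-BET151 than in JQ1, and 11 higher and 4 lower than in Molib. Of 30 adaptors, 8 were higher and 3 lower than in JQ1, and 7 higher and 1 lower than in Molib.

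Other receptors and regulators also moved. FGFR3 and FGFR4, relatives of FGFR1, were 2.48-fold higher each in JQ1 and 3.23-fold and 3.10-fold higher in Molib, and EPHB2 was 1.58-fold lower in JQ1, 1.65-fold lower in Molib and 1.27-fold higher in I-BET151. In I-BET151 EPHB4, another ephrin receptor, was 2.62-fold lower (7.18 ± 1.07 against 18.8 ± 1.14 in DMSO) and MUSK 2.84-fold higher. Of 28 other receptors tested, 5 rose and 7 fell with JQ1, 6 and 7 with Molib, and 3 and 6 with I-BET151 (medians -0.14, -0.20 and -0.02). SRC, a kinase that works with the receptors, was 3.30-fold lower in JQ1 and 2.84-fold lower in Molib, and MAPK3, which encodes ERK1, 2.22-fold and 2.13-fold lower. AKT1 was 1.55-fold lower in JQ1 and IRS2, an adaptor of INSR, 1.61-fold higher in Molib, while in I-BET151 ARAF was 1.64-fold higher and IRS1 higher (14.7 ± 0.00536 against 10.5 ± 0.0970 FPKM in DMSO). Of 30 adaptors and effectors 3 rose and 6 fell with JQ1, 3 and 4 with Molib, and 2 and 1 with I-BET151 (medians -0.03, 0.02 and 0.01).

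Among the negative regulators ERRFI1 was 2.14-fold lower in JQ1 and 2.38-fold lower in Molib (68.8 ± 9.79 and 61.9 ± 3.46 FPKM, against 148 ± 0.150 in DMSO). PTPRJ, at 29.6 FPKM in DMSO, was at 15.1 in JQ1, 13.5 in Molib and 18.2 in I-BET151, and fell with each. SH3KBP1, which helps to take receptors into the cell, was at 11.02 ± 0.549 FPKM in JQ1 and 12.7 ± 0.675 in Molib, against 23.1 ± 1.59 in DMSO. GRB10 was 1.78-fold higher in I-BET151. ADAM17, which is in this list although it sheds EGFR ligands, was 1.84-fold higher in I-BET151. Of 25 tested 2 rose and 7 fell with JQ1, 2 and 5 with Molib, and 6 and 2 with I-BET151 (medians -0.17, -0.03 and 0.22).

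EGFR and AXL were lower in shM3 than in B5 (log2 fold changes -1.09 and -0.42) and higher with each BET inhibitor than with DMSO (0.42 to 1.28 and 0.29 to 0.69). DDR1 was lower in shM3 (-0.89), in JQ1 (-1.40) and in Molib (-1.68). In the CTRL table, JQ1 against CTRL gave -0.07 for EGFR, -0.20 for AXL and -1.98 for DDR1, and none of these passed. These changes come from separate tables, and whether they differ was not tested.

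The third table asked how MW_JQ1 cells, whose METTL3 was at 212 and 234 FPKM, differ from JQ1 cells (11.8 FPKM and listed at 0) and CTRL cells (31.2 and 1.18), and set JQ1 against CTRL. By limma no receptor passed in JQ1 against CTRL, where 0 of 13261 genes passed (2048 at an unadjusted p under 0.05, 3 of them receptors). In MW_JQ1 against JQ1, 1 receptor, ERBB3, was higher (15.2% of all genes passed, 13.5% higher and 1.62% lower). In MW_JQ1 against CTRL none passed (15.1% of all genes, 13.3% higher and 1.88% lower). At an unadjusted p under 0.05 were 3650 of the 13261 genes in this comparison, 1 of them a receptor. The median log2 fold change over all genes was 0.75 in MW_JQ1 against JQ1 and 0.61 in MW_JQ1 against CTRL, in libraries that differ in the share of genes listed at 0, and it fell to 0.15 and 0.14 with scaling to equal medians. The part of this shift in the receptor values was not tested.

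ERBB3 was at 2.80 and 3.71 FPKM in MW_JQ1 and listed at 0 in both JQ1 libraries, and it was at 3.68 and 3.58 in CTRL. JQ1 against CTRL gave an adjusted p of 0.088 for ERBB3, and 0.049 without CTRL replicate 2. The call of MW_JQ1 against JQ1 (adjusted p = 0.015) was lost without MW_JQ1 replicate 1 (0.84) or MW_JQ1 replicate 2 (0.88), and could not be made among genes above 0 in every library, a restriction chosen after the data were seen. MET was at 31.3 and 28.4 FPKM in MW_JQ1 and 12.8 and 5.99 in JQ1, against 27.8 and 18.8 in CTRL. Both JQ1 values were under all others (MW_JQ1 against JQ1, log2 fold change 1.65, SE 0.47, adjusted p = 0.092, and 0.037 without JQ1 replicate 1). FGFR1 was at 30.1 and 33.9 FPKM in MW_JQ1 and 28.8 and 51.7 in JQ1, against 84.0 and 110.3 in CTRL. Both JQ1-treated groups lay under the CTRL pair, by 1.56 on the log2 scale in MW_JQ1 (adjusted p = 0.051) and by 1.30 in JQ1 (adjusted p = 0.20), and the MW_JQ1 difference passed without JQ1 replicate 1 (0.023) or JQ1 replicate 2 (0.024).

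DDR1 was at 18.05 and 19.3 FPKM in MW_JQ1 and 26.9 and 4.60 in JQ1, against 51.2 and 45.4 in CTRL. The CTRL pair was above all 4 JQ1-treated libraries (JQ1 against CTRL, log2 difference -1.98, 95% interval -4.05 to 0.09). DDR1 passed in fits that left out a JQ1 library, in MW_JQ1 against JQ1 without JQ1 replicate 1 (adjusted p = 0.027) and in MW_JQ1 against CTRL without JQ1 replicate 1 (0.033) or JQ1 replicate 2 (0.027). EGFR was at 54.2 and 61.2 FPKM in MW_JQ1 and 84.8 and 31.8 in JQ1, against 31.8 and 94.0 in CTRL, so that the spread within JQ1 and CTRL was wider than any difference between the group means. AXL (148 to 211 FPKM over the 6 libraries) and EPHA2 (116 to 159) stayed the highest receptors, with differences between MW_JQ1 and JQ1 of 0.01 (95% interval -0.53 to 0.55) and 0.08 (-0.49 to 0.65). ERBB2 was at 21.4 and 23.2 FPKM in MW_JQ1 and 20.04 and 3.16 in JQ1, against 48.8 and 12.3 in CTRL, IGF1R at 6.25 and 9.02 in MW_JQ1 and 7.97 and 1.07 in JQ1, against 12.3 and 16.2 in CTRL, and INSR over 2.31 to 4.44 in the 6.

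**Figure D5:**
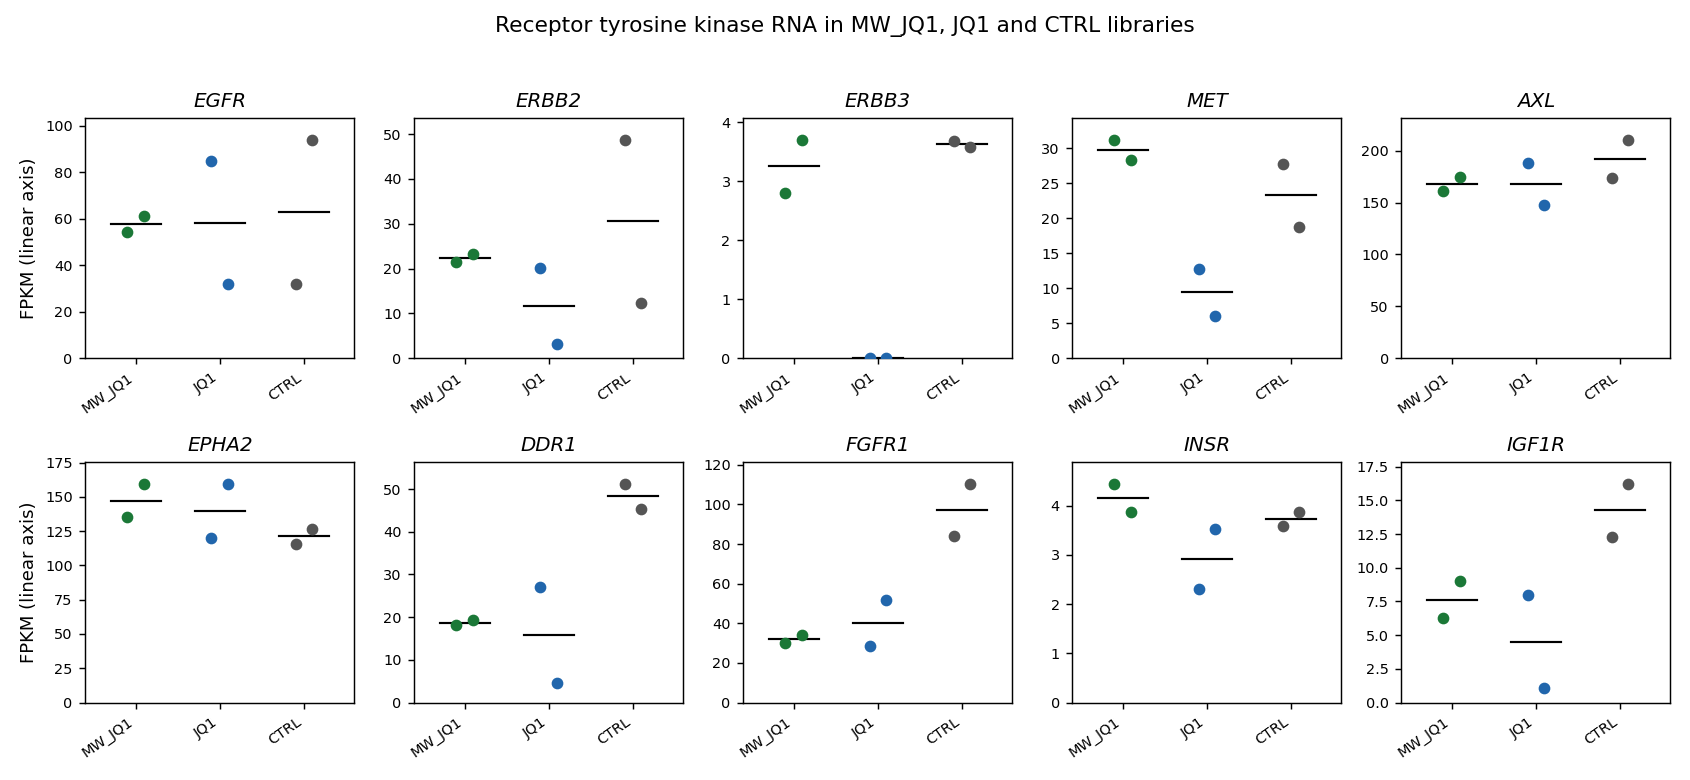
FPKM of the 10 receptors in the CTRL table, 1 panel a gene on a linear axis from 0, with groups MW_JQ1, JQ1 and CTRL; each point is 1 library and the bar is the mean of the 2. ERBB3 is listed at 0 in both JQ1 libraries, and FGFR1 sits at 84.0 and 110.3 FPKM in CTRL, above the 4 JQ1-treated libraries at 28.8 to 51.7.

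In MW_JQ1 against JQ1 the ligands AREG (277 ± 13.2 against 38.0 ± 26.9 FPKM) and GAS6, the AXL ligand (255 ± 11.01 against 116 ± 21.1), were higher. IER3 was 5.07-fold and SH3KBP1 5.83-fold higher, SPINT1 was at 14.6 ± 1.91 FPKM and listed at 0 in both JQ1 libraries, while DUSP6 was 2.71-fold lower and CCND1, the cyclin raised by ERK, 1.84-fold lower. Of the lists, 8 of 19 other receptors, 3 of 13 ligands, 1 of 29 adaptors, 2 of 24 negative regulators and 3 of 17 ERK genes were higher, and 3 ERK genes were lower, where 13.5% of all genes were higher and 1.62% lower. The 8 other receptors averaged 1.95 to 8.04 FPKM in MW_JQ1 and 0 to 0.277 in JQ1, so they passed the filter on low values through MW_JQ1 alone, as did NRG2 and FOS, and nothing is read from these counts. The 3 luminal markers in this table summed to 781 to 785 FPKM in MW_JQ1, against 407 to 469 in JQ1, nearly all KRT19, and the 5 line markers to 1006 to 1375 in MW_JQ1, against 1018 to 1088 in JQ1, most of it VIM. CD14, the only haematopoietic marker in this table, was at 15.7 and 13.1 FPKM in MW_JQ1, against 0.248 and 0 in JQ1, and the 3 fibroblast and endothelial markers summed to 4.25 to 4.53, against 0 to 6.98. Their part was not tested.

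Neighbouring or overlapping genes limit some values. EGFR overlaps the antisense gene EGFR-AS1, ERBB2 overlaps PGAP3 and MIEN1 on the other strand, FGFR1 overlaps LETM2 on the other strand, and ERBB3 overlaps AC034102.2 on the same strand. AXL, EPHA2 and IGF1R also overlap antisense genes. Whether strand was used in counting is not given in the sources used here.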

How the data were processed

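RNA-seq of 22 MDA-MB-231 libraries was deposited by the authors as 3 tables of FPKM; the name of the knockdown table gives the unit, and in the other tables it was inferred from the values. The genome build hg38 and the tools Cufflinks 2.2.1, HISAT2 2.1.0 and CASAVA 1.4 are listed, per the submitters' processing notes, with no role or order. Per the labels' protocols there were 2 library preparations, not assigned to samples. Counts and depth are unknown, so no counting error could be given.

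Groups came from the labels. The JQ1 columns of the DMSO table were assigned by elimination and carry no replicate number (libraries a and b). Genes reaching 1 FPKM in 2 or more libraries were tested on log2(FPKM + 1) with limma 3.58.1 in R 4.3.3, all groups of a table in 1 fit with a trend on mean level, and p-values were adjusted by Benjamini-Hochberg over all genes tested (threshold 0.05). Folds are ratios of mean FPKM. Tests were made within a table only, and the code was tested on simulated data. Plots were drawn with matplotlib 3.10.9 (Python 3.11.15, pandas 2.3.3), and gene positions came from GENCODE 29.

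All 10 receptors are named. From each pathway list, up to 3 genes per comparison that passed and averaged at least 5 FPKM over both groups are named, smallest adjusted p first. Members and lists were chosen with earlier results of these data known. The alternatives were pseudocounts of 0.1 and 5, no filter, trimmed-mean (TMM) or median scaling, a replicate block, leaving out each library, and, chosen after the data were seen, only genes above 0 in every library. Some genes of the lists are not reported here by name.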

Additional observations from a re-analysis of the deposited data

Results flagged for a closer look

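FGFR1 stood out because JQ1 at the same dose and time went with opposite directions in the DMSO and CTRL tables. In the DMSO table FGFR1 was at 45.3 and 42.2 FPKM in JQ1, against 33.8 and 28.8 in DMSO (log2 fold change 0.47). In the CTRL table it was at 28.8 and 51.7 FPKM in JQ1, against 84.0 and 110.3 in CTRL (log2 fold change -1.30). The libraries were unlike: the correlation between replicates was 0.777 in JQ1 and 0.746 in CTRL, against 0.987 in JQ1 and in DMSO of the DMSO table. In the JQ1 and CTRL libraries of the CTRL table, 15.5% to 28.6% of the genes tested were listed at 0. FGFR1 was picked among the receptors for opposite directions with no overlap between the groups in either table. The lack of overlap was thus fixed by the choice, and with 2 libraries a group it is no separate evidence. Neither difference passed the threshold, and the difference between the tables was not tested.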

How the results depend on the processing

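Of 51 receptor calls 31 were kept under every alternative, 20 were lost under at least 1, and 0 changed direction. Leaving out 1 library at a time gave 6 to 8 receptors past the threshold for shM3 against B5 (8 with all libraries), 6 to 7 for shM3_WT against shM3 (6), 0 to 1 for shM3_CD against shM3 (0), 4 to 6 for shM3_WT against shM3_CD (6), 3 to 5 for shM3_WT against B5 (5) and 3 to 7 for shM3_CD against B5 (7). It gave 2 to 4 for JQ1 (3), 3 to 4 for Molib (4) and 1 to 4 for I-BET151 (3) against DMSO, 0 for Molib against JQ1, 2 to 4 for I-BET151 against JQ1 (3), 3 to 5 for I-BET151 against Molib (5), 0 to 1 for JQ1 against CTRL (0), 0 to 3 for MW_JQ1 against JQ1 (1) and 0 to 2 for MW_JQ1 against CTRL (0). With 1 library left out, the lone library of that group is assumed to vary like the others. For MW_JQ1 against JQ1 the count was 0 with the replicate block and among genes above 0 in every library, and for MW_JQ1 against CTRL it was 1, FGFR1, with a pseudocount of 5, without the filter and with TMM; the cause was not tested.

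Equal replicate numbers did not pair the samples: their deviations correlated between -0.123 and 0.042. With the replicate number as a block, which drops JQ1 of the DMSO table, IGF1R in shM3 against B5 passed (adjusted p = 0.022) and MET in I-BET151 against DMSO passed (0.035), while AXL in shM3_WT against B5 (0.057), AXL in I-BET151 against DMSO (0.13) and ERBB3 in MW_JQ1 against JQ1 (0.058) did not. With 2 libraries a group and unknown depth, a receptor that did not pass may still differ by an amount within its interval.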
